A study of Mus musculus with 9 samples.

Results

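The GC-rich amplicons are the stretches of mouse 5′ untranslated regions in which G and C made up at least 65% of the nucleotides in the deposited table. They number 50 of 161 amplicons and come from 34 of 69 transcripts. Membership rests on base composition alone and on no measured reactivity. The 50 amplicons hold 5260 A and C nucleotides, of which 5256 had a count in at least 1 sample and were tested (1468 A and 3788 C). They are not independent of each other, since 27 come from transcripts with several members and 23 share positions with another member.

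A 5′ untranslated region (5′ UTR) lies between the cap of an mRNA and its start codon, and the initiating ribosome has to pass through it. G and C pair through more hydrogen bonds than A and U, so GC-rich leaders tend to fold stably, and stable leader structures can slow the scanning ribosome. Dimethyl sulfate (DMS) methylates the pairing face of A and C where it is exposed, and a reverse transcriptase that reads through the methyl group leaves a mutation in the cDNA. High reactivity marks a base that was not shielded, and protection can come from pairing or from a bound protein.

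All 9 samples were RNA of E14TG2a mouse embryonic stem cells, an established pluripotent line, with 3 replicates in each of 3 groups. In the untreated group DMS was added to living cells. In the ATP-depleted group the cells were first held for 10 min without glucose and with 10 mM 2-deoxyglucose and 10 mM sodium azide, inhibitors of glycolysis and respiration, and then probed in the same way (6 min at 37 °C with 1.6% DMS, buffered by 250 mM bicine). In the in vitro refolded group the RNA was probed after refolding outside the cell, and the sources used here do not give its DMS conditions. A DMS-free control was not analysed here, and the mutation background of each nucleotide is unknown. Reactivity is given as CPM, the counts at a nucleotide per 1000000 counts of its own amplicon in that sample after the authors' scaling, so a value describes how signal was distributed along an amplicon and not how much signal the amplicon had.

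The nucleotides below carry some of the clearest single-base differences between in vitro refolded RNA and RNA probed in cells, and every one is a C read in a GC-rich amplicon. Each line gives up to 10 deposited bases on either side, 5′ to 3′ in the DNA alphabet of the table, with the named base in capitals.

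Hipk3 C472: ccgcacggccCccgcgaccca
Eif5 C175: tggacgcggaCgtcgctggga
Brd2 C1582: ggtcccgcaaCgaggctgacg
Brd2 C1579: gccggtcccgCaacgaggctg
Ncdn C226: catatctcgaCatca
Taok2 C400: atcagCagcgcctccg

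Positions count along the transcript as the table numbers them. By the RefSeq annotation of GRCm38.p6, Hipk3 lies on chromosome 2, Ncdn on chromosome 4, Taok2 on chromosome 7, Eif5 on chromosome 12 and Brd2 on chromosome 17. The windows of Ncdn and Taok2 are cut short because C226 is 4 nucleotides before the last position read and C400 is 5 nucleotides after the first.

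The G plus C share of the members ran from 65.2% to 79.8% with a median of 71.4%, against 35.7% to 64.2% and a median of 50.7% in the other 111 amplicons. The median member had 14.8% A, 36.5% C, 35.3% G and 14.0% T, where the median other amplicon had 24.5% A, 23.9% C, 25.1% G and 25.1% T. GC-rich amplicons therefore offered DMS few A, a median of 30 per amplicon against 49, and many C, a median of 75.5 against 48. The dinucleotide CG occurred 10.9 times per 100 nucleotides in the median member and 3.26 times elsewhere. A run of 4 G, the letters GGGG on the transcript strand, was present in 84% of members and 56.8% of other amplicons, and the run CCCC in 88% and 48.6%. The minimum free energy predicted with RNAfold was -0.451 kcal/mol per nucleotide in the median member and -0.279 in the median other amplicon. The highest G plus C shares belonged to Ptms 144 to 394 (79.8%), whose gene encodes the small acidic protein parathymosin, to Tle4 479 to 729 (78.9%), from a Groucho-family corepressor gene, and to Rnf10 15 to 265 (78.9%), from a RING finger protein gene.

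Amplicons just inside and just outside the threshold overlapped in their untreated Gini coefficients. Just inside it, Srgap2 388 to 638 (65.2%) had Gini coefficients of 0.312 ± 0.0118 in untreated cells and 0.384 ± 0.00737 in vitro, and Dicer1 87 to 337 (65.4%) had 0.436 ± 0.0492 and 0.573 ± 0.0745 (SD, n = 3). Just outside it, Ctcf 56 to 306 (64.2%) had 0.289 ± 0.015 and 0.437 ± 0.00863, and Brd2 604 to 854 (64.2%) had 0.413 ± 0.0115 and 0.418 ± 0.0153. The Gini coefficient is 0 for an amplicon whose A and C all have the same reactivity, and it nears 1 when a few of them hold most of the signal.

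Members had fewer recovered counts than the rest. The counts are taken to be mutations and read coverage is unknown, so sequencing depth itself was not measured. The members held 15.5% to 22.5% of the counts of a sample. The median member library had 11662.5 to 34551 counts, against 25435 to 80743 for other amplicons. In the 6 in-cell samples 2 to 6 members had under 5000 counts, and in the in vitro samples 12, 18 and 13 had. At least 5000 counts in every sample were reached by 31 members, and 19 fell short. The smallest member library was Ptms in in vitro replicate 2 with 96 counts. Replicate profiles of member nucleotides correlated at 0.810 to 0.860 in ATP-depleted, 0.793 to 0.833 in untreated and 0.684 to 0.770 in in vitro samples (Pearson, over log2 reactivity of A and C).

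The A and C signal of GC-rich amplicons was more uneven than that of other amplicons in every sample. The median Gini coefficient of members was 0.386 ± 0.0255 in untreated, 0.391 ± 0.0177 in ATP-depleted and 0.493 ± 0.0124 in in vitro samples (SD, n = 3), and that of other amplicons was 0.312 ± 0.0246, 0.316 ± 0.0161 and 0.396 ± 0.0169. Within a sample the members' median exceeded the others' by 0.0821 on average, with a range of 0.064 to 0.104, and was above it in 9 of 9 samples (exact sign-flip permutation test over samples, two-sided p = 0.00391, the smallest that 9 samples can give, adjusted p = 0.00651 over 5 measures). Within the 18 transcripts that had both kinds of amplicon, so that both came from the same mRNA, the difference was smaller at 0.0414 and again above 0 in every sample, a comparison added after seeing the data. Limited to amplicons that reached 5000 counts in all samples it was 0.0701, and with all libraries of an amplicon thinned to its smallest it was 0.0818. The thinning evened counts between the samples of an amplicon, and it did not match members to others in counts. The median smallest library held 9662 counts in members and 22331 in other amplicons.

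**Figure D1:**
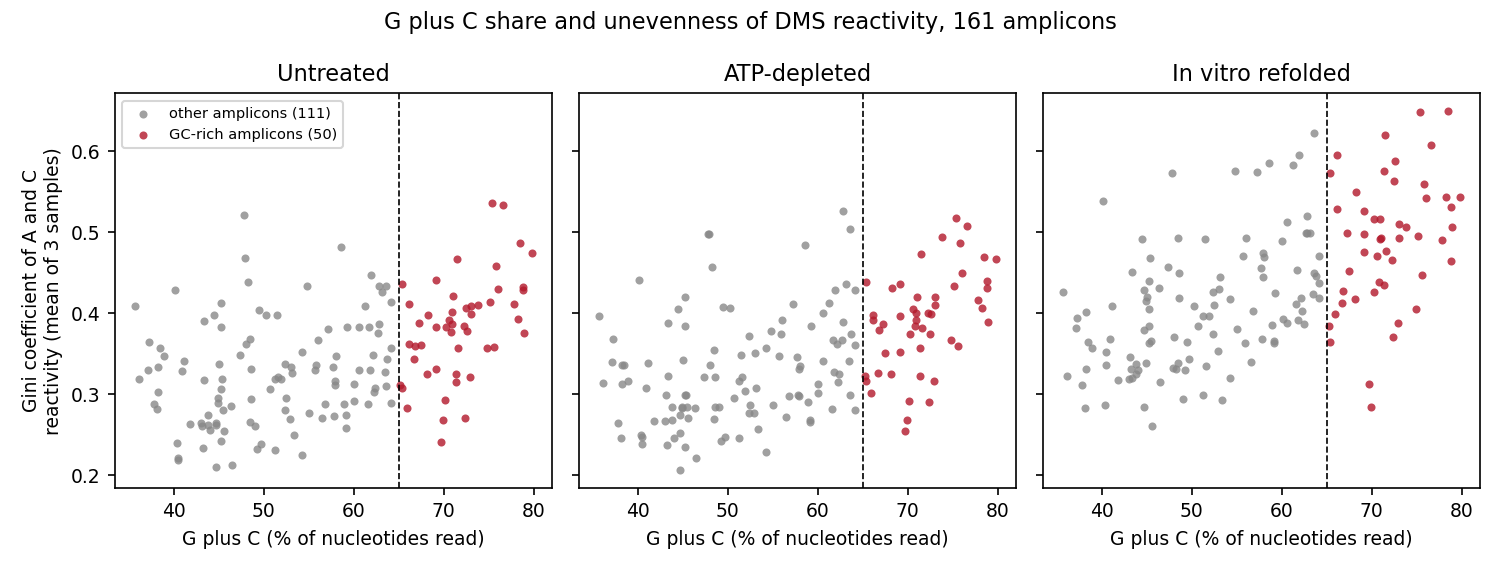
Each point is 1 of 161 amplicons, with its G plus C share on the horizontal axis and the mean Gini coefficient of its A and C reactivity over 3 samples on the vertical axis, 1 panel per group. The GC-rich amplicons, right of the dashed line at 65%, reach from 0.240 to 0.536 in untreated cells and overlap the range of the others, and the whole cloud sits higher in the in vitro panel.

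The size of that excess depended on which base was read. Among C alone the members' median Gini coefficient was 0.389 ± 0.0215 in untreated samples against 0.355 ± 0.0181 in other amplicons, and the within-sample difference averaged 0.0466 over 9 of 9 samples above 0 (exact permutation p = 0.00391). Among A alone the medians were 0.219 ± 0.0152 and 0.227 ± 0.0222 in untreated samples, and the within-sample difference averaged 0.00185 with 4 of 9 samples above 0 (exact permutation p = 0.844). It ran from -0.0157 to 0.00357 in untreated, from -0.0119 to -0.00682 in ATP-depleted and from 0.011 to 0.0462 in in vitro samples. An excess among A was therefore not detected, while C and the mixture of both bases showed one.

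**Figure D2:**
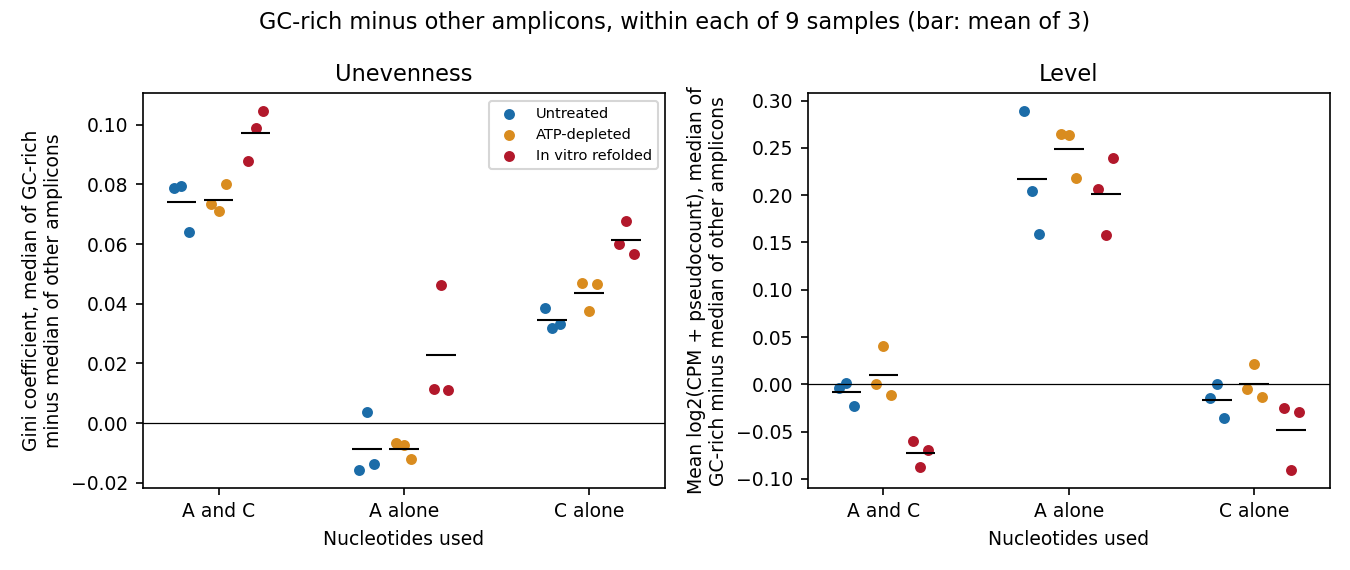
The left panel gives, for each of 9 samples, the median Gini coefficient of the 50 GC-rich amplicons minus that of the 111 others, with A and C together, A alone and C alone, and the right panel gives the same for the mean log2 reactivity level. Bars are means of 3 samples. The differences for A and C together lie between 0.064 and 0.104, those for A alone straddle 0, and the level of A is 0.22 higher in GC-rich amplicons on average.

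The few A of GC-rich amplicons took higher values than A elsewhere. Their median reactivity was 10223 ± 582 CPM in untreated, 10222 ± 361 in ATP-depleted and 10896 ± 475 in in vitro samples, against 8234 ± 392, 8086 ± 400 and 8979 ± 131 CPM in other amplicons. The amplicon mean of log2(CPM + 3197) over A was higher in members by 0.22 in the median (9 of 9 samples, exact permutation p = 0.00391, adjusted p = 0.00651). This held in all 21 alternatives tried, the comparison within transcripts included (0.20). CPM within an amplicon sum to a fixed total, so a level of 1 base also moves with the number and reactivity of the other bases.

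Members and others differed less at C. The median C of members had 4763 ± 1.43 CPM in untreated, 4571 ± 57.5 in ATP-depleted and 3886 ± 167 in in vitro samples, and the median C elsewhere had 4867 ± 73.6, 4614 ± 115 and 4258 ± 44.7. The difference in the mean log2 level over A and C together was -0.0238, with 2 of 9 samples above 0 (exact permutation p = 0.137). Over C alone it was -0.0212 (exact permutation p = 0.0547) and its sign depended on the setting: it was 0.0599 among nucleotides at or above the pooled median and 0.0376 within transcripts. The median A of a set was also divided by its median C. This ratio was not taken within each amplicon, so amplicon totals do not cancel out of it. In the order untreated, ATP-depleted and in vitro refolded, it was 2.15 ± 0.123, 2.24 ± 0.0946 and 2.80 ± 0.00641 in members. In other amplicons it was 1.69 ± 0.0821, 1.75 ± 0.0491 and 2.11 ± 0.0447. In both sets the 3 in vitro samples had the highest ratios, and the lowest member ratio in a sample, 2.01, was above the highest ratio of other amplicons in cells, 1.78.

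Signal at G and U was measured in the same libraries. The median G of members had 795 ± 26.1 CPM in untreated samples, well below A and C. The median U had 3795 ± 405 CPM in untreated, 4154 ± 533 in ATP-depleted and 3488 ± 46.2 in in vitro samples. These means are below those of C but within their order of size. In ATP-depleted replicate 2 the median U of members was above C, at 4712 against 4611 CPM. U in other amplicons was similar, at 3921 ± 475, 4301 ± 610 and 3610 ± 101 CPM, and again above C in ATP-depleted replicate 2 (4936 against 4518 CPM). Without a sample that received no DMS, how much of any base's signal was DMS-dependent cannot be told.

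**Figure D3:**
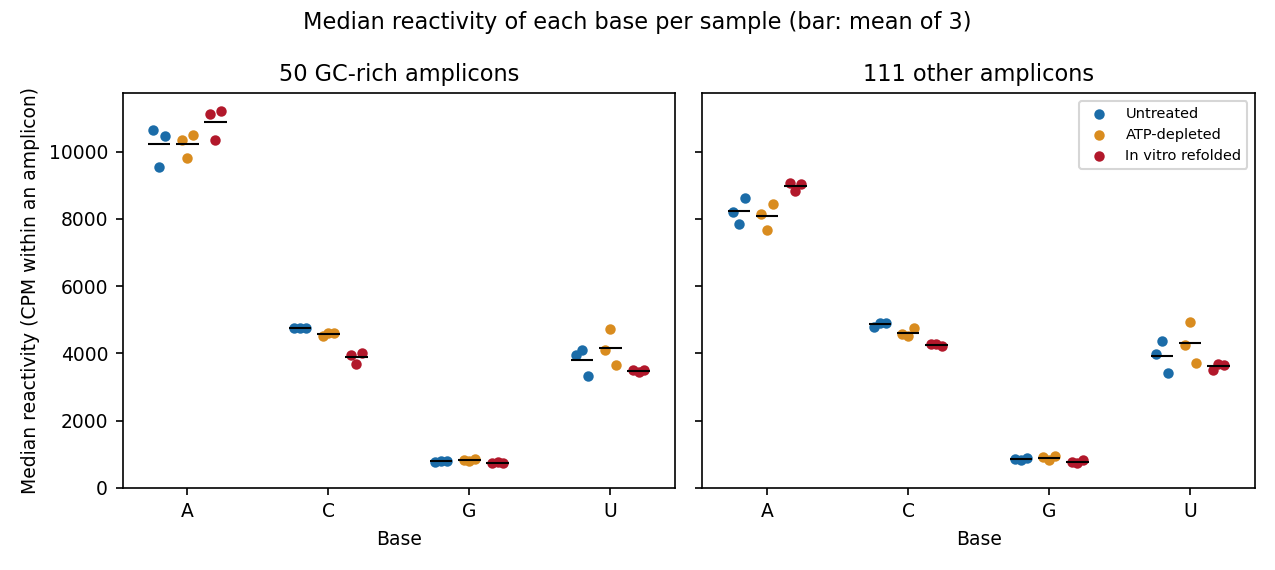
Points give the median reactivity in CPM of each base in each sample for the 50 GC-rich amplicons (left) and the 111 others (right), and bars are means of 3 samples. A of GC-rich amplicons lies between 9560 and 11208 CPM, and C falls to 3695 to 4004 CPM in vitro. In both panels U lies below C except in ATP-depleted replicate 2, where it lies above.

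The unpaired probability predicted by RNAfold ranked reactive A and C better in GC-rich amplicons than in others, but not when either base was scored alone. Agreement was scored as the area under the curve with which the predicted unpaired probability picked the most reactive 1 in 3 of A and C. It was 0.757 ± 0.00705 in members and 0.679 ± 0.0138 in other amplicons in untreated samples, and 0.737 ± 0.0129 and 0.675 ± 0.0112 in vitro. The within-sample difference averaged 0.0717 (9 of 9 samples, exact permutation p = 0.00391). In untreated samples the score for A alone was 0.614 ± 0.021 in members and 0.611 ± 0.00777 in others. For C alone it was 0.678 ± 0.00783 and 0.684 ± 0.00614. For A alone the within-sample difference averaged -0.013 (p = 0.113, exact permutation test) and for C alone -0.0104 (p = 0.0703, exact permutation test). The base composition of the amplicons therefore moved with this score, and neither base alone showed a higher agreement in members than in others.

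Over all 161 amplicons the G plus C share correlated with the Gini coefficient at r = 0.461 in untreated, 0.503 in ATP-depleted and 0.591 in in vitro samples. Within the 50 members r was 0.493, 0.497 and 0.347. Counts moved with the same quantity: the log10 number of counts of an amplicon correlated with its Gini coefficient at -0.458, -0.425 and -0.512 over all amplicons. Within members this correlation was -0.624, -0.571 and -0.488. Among the 115 amplicons whose smallest library held 5000 counts or more, the correlation with G plus C was 0.375, 0.429 and 0.573. The predicted free energy per nucleotide gave r = -0.566, -0.582 and -0.667 within members. These correlations describe amplicons that share libraries, transcripts and positions, and their part in each other was not tested.

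In vitro refolding was accompanied by higher Gini coefficients in most members, as in most amplicons. Against untreated cells 43 of 50 members were higher and 0 lower (86%, limma, Benjamini-Hochberg adjusted p under 0.05), where 80.1% of all 161 amplicons were higher, 1.86% lower and 82.0% called either way. Against ATP-depleted cells 44 of 50 were higher and 0 lower (88%), where the whole set had 78.9% higher, 1.86% lower and 80.7% called. The members' median difference was 0.0977 against untreated and 0.0915 against ATP-depleted, and over all amplicons it was 0.0923 and 0.0867. These shares are near the background. The excess of members over others was 0.0742 ± 0.00879 in untreated and 0.0971 ± 0.00848 in in vitro samples, a change of 0.0229 that 3 samples against 3 cannot take below p = 0.10 (exact permutation p = 0.1, adjusted p = 0.3 over 15). Both comparisons use the same in vitro samples, so they are not independent of each other.

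By function, 15 of 16 amplicons from genes of chromatin and transcription were higher in vitro than in untreated cells, with a median rise of 0.126. They come from Brd2, Eed, Tle4, Kdm2a, Kmt2e, Rarg, Smad6, Ints6, Sertad2 and Esco1. All 4 amplicons from genes of translation, RNA processing and export were higher (Eif5, Eif4g3, Dicer1 and Chtop), with a median of 0.126, as were 10 of 13 from kinases and phosphatases (among them Hipk3, Taok2, Ppm1b, Ppp2r5e, Ptp4a1 and Ptprg), with a median of 0.0964. Of 5 amplicons from ubiquitin and SUMO enzymes (Rnf10, Ube4b and Senp3) 4 were higher, with a median of 0.0715, and of the 12 from other genes 10 were. Over all amplicons 80.1% were called higher, and most of these groups lie near that share. The groups were chosen with results of these data known, and differences between them were not tested.

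**Figure D4:**
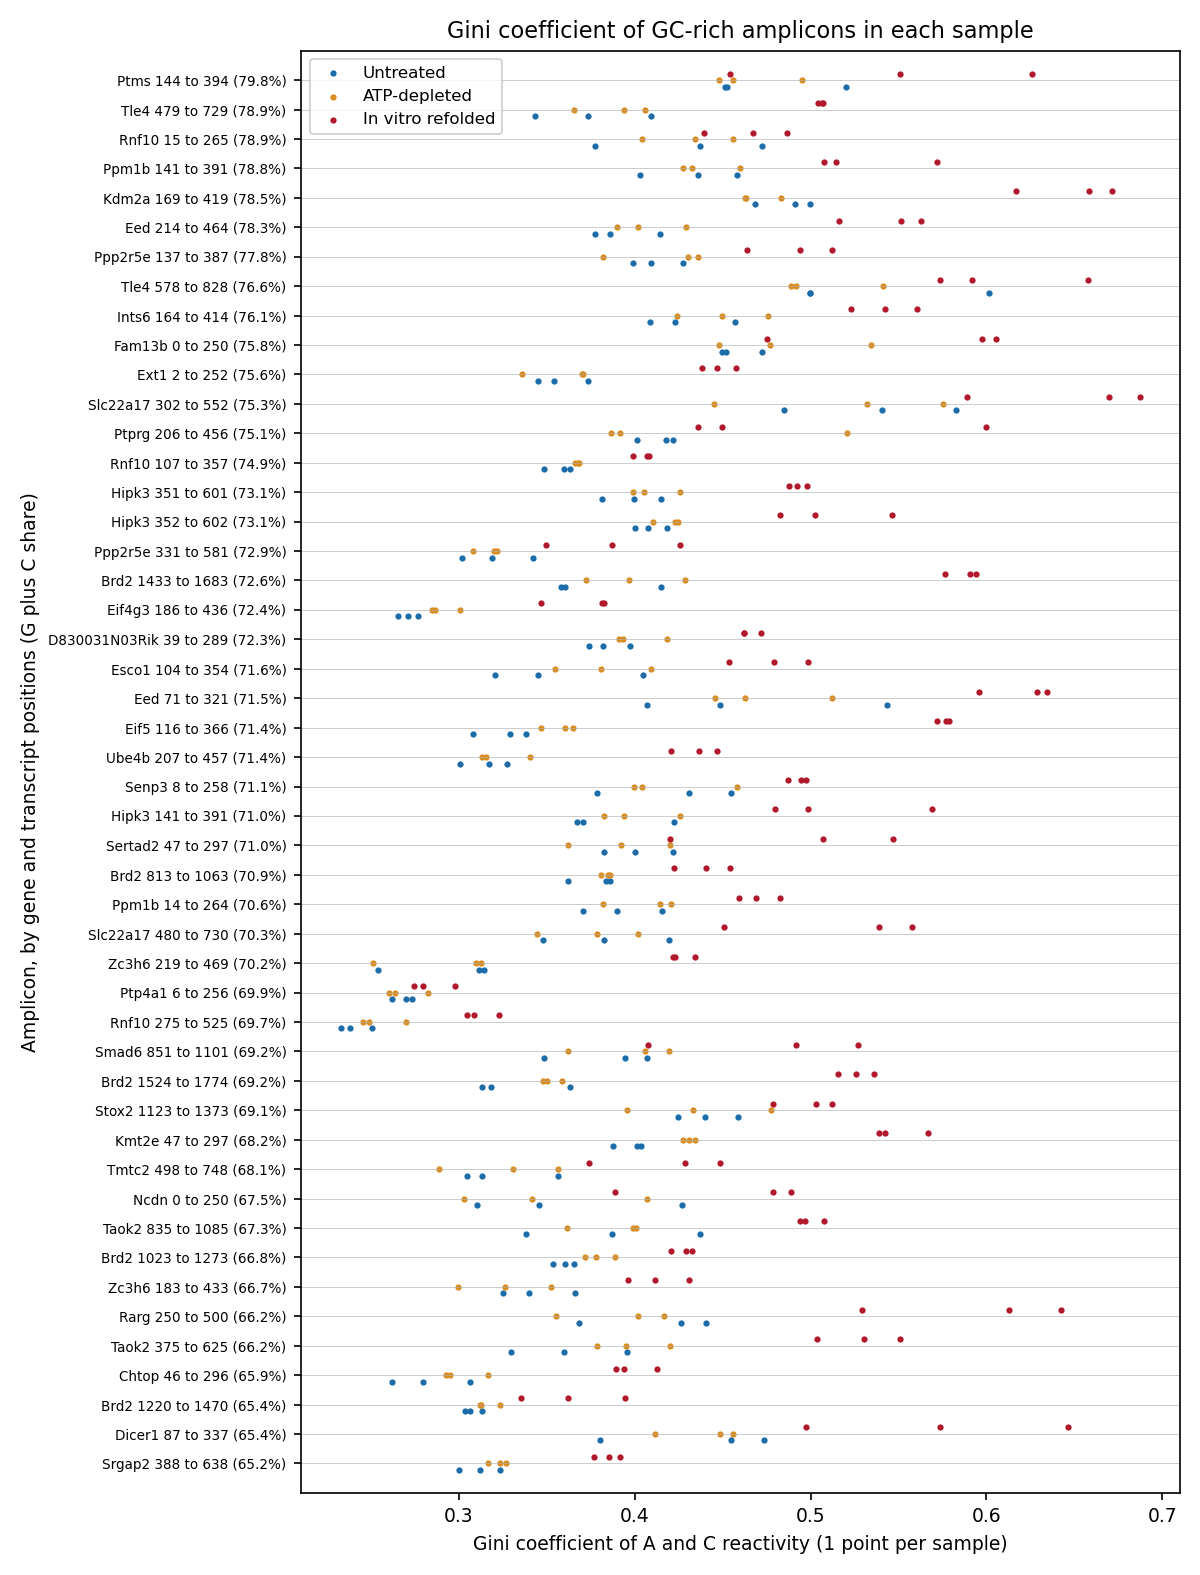
Each row is 1 of 48 GC-rich amplicons, ordered by G plus C share, and each point is the Gini coefficient of its A and C reactivity in 1 sample. In most rows the 3 in vitro points lie right of all 6 in-cell points, with the widest separation in Eif5, Brd2 1433 to 1683 and Brd2 1524 to 1774, while Ptp4a1 and Rnf10 15 to 265 show little.

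Eif5 116 to 366 had the largest rise. Eif5 encodes the GTPase-activating protein that acts on the initiation factor delivering the initiator tRNA. The Gini coefficient was 0.338, 0.308 and 0.329 in untreated, 0.365, 0.347 and 0.360 in ATP-depleted and 0.577, 0.578 and 0.572 in in vitro samples. All in vitro values were far above all in-cell values, and the lowest ATP-depleted value was above the highest untreated one. The rise was 0.251 ± 0.0101 (SE) against untreated (limma adjusted p = 1.59e-06) and 0.219 against ATP-depleted (adjusted p = 2.3e-06). The amplicon also had among the most counts of any member, at least 85348 in every sample. Of its 100 tested A and C, 35 were higher and 36 lower in vitro than in untreated cells. The share of A and C signal held by the most reactive 1 in 10 of them was 25.2% in untreated, 26.7% in ATP-depleted and 40.2% in in vitro samples.

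**Figure D5:**
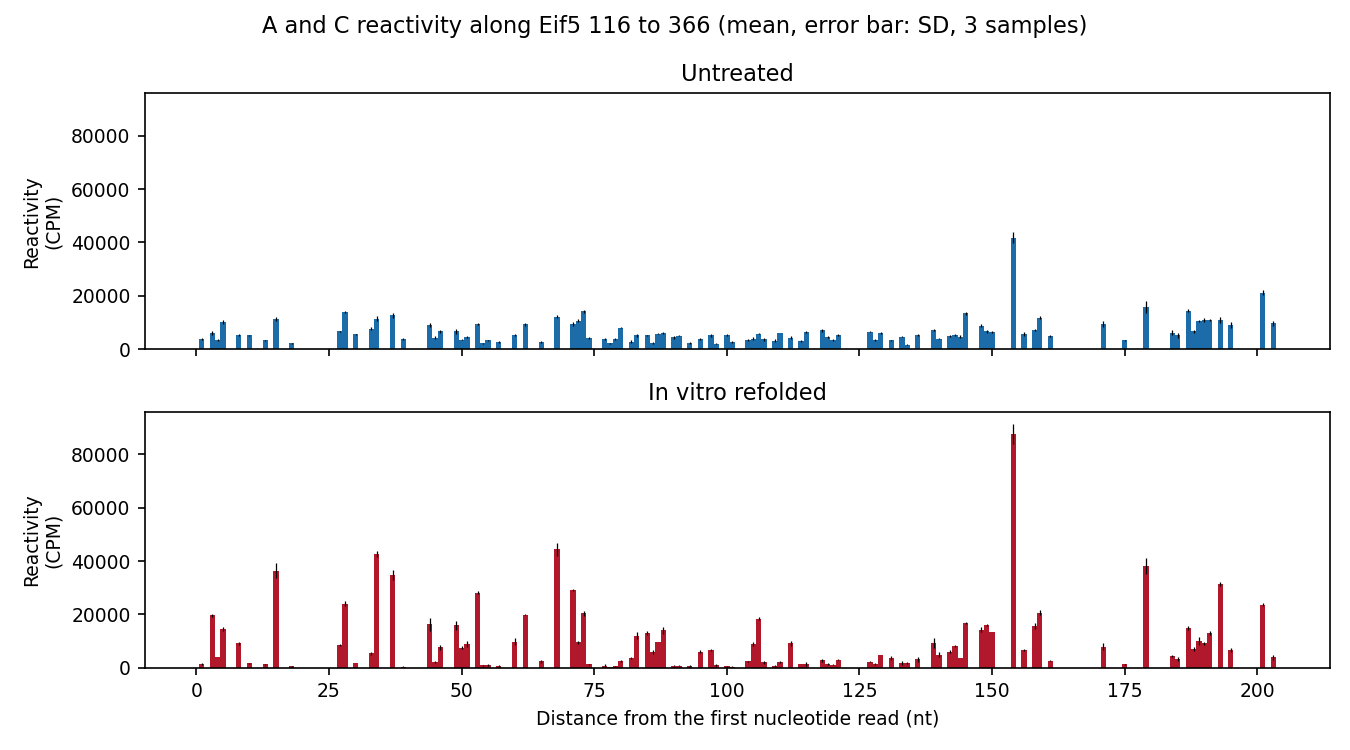
Bars give the mean reactivity of each tested A and C along Eif5 116 to 366 in CPM, and error bars the SD of 3 samples. In untreated cells the bars are less uneven than in vitro, where a smaller number of tall bars stands among many near 0. The tallest bar, 154 nucleotides after the first one read, is the same in both panels (41830 CPM in untreated and 87552 CPM in vitro).

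At Eif5 C175, shown above, reactivity was 12104, 10462 and 11824 CPM in untreated, 14297, 14332 and 14594 in ATP-depleted and 42314, 43805 and 41735 in in vitro samples. The in vitro values were separate from both in-cell groups, and the change against untreated was 1.65 on the log2(CPM + 3197) scale (SE 0.087, limma adjusted p = 0.000186). Its counts ran from 1722 to 9200 per sample, so counting error is small there.

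Brd2, which encodes a bromodomain protein that reads acetylated histones, supplied 5 members along 1 leader, and they did not rise alike. The upstream amplicons 813 to 1063, 1023 to 1273 and 1220 to 1470 rose by 0.0616, 0.0677 and 0.0562 against untreated (limma adjusted p = 0.00122, 0.000183 and 0.00763). The downstream amplicons 1433 to 1683 and 1524 to 1774 rose by 0.209 ± 0.0193 and 0.194 ± 0.0141 (SE, limma adjusted p = 4.91e-05 and 1.44e-05). In 1433 to 1683 the values were 0.415, 0.358 and 0.360 in untreated, 0.428, 0.372 and 0.397 in ATP-depleted and 0.591, 0.594 and 0.576 in in vitro samples, and the in vitro values did not overlap the others. The upstream amplicons had 3 to 7 nucleotides called higher and 3 or 4 called lower, and the downstream pair had 14 and 22 called higher and 29 each called lower. The difference between the upstream and downstream amplicons was not tested.

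Both downstream Brd2 amplicons read the stretch with C1579 and C1582. At C1582 in amplicon 1524 to 1774 reactivity was 7541, 7795 and 8067 CPM in untreated, 8117, 7353 and 8343 in ATP-depleted and 610, 336 and 996 in in vitro samples. The in vitro counts there were only 22, 4 and 35, so the depth of the fall is known poorly, although no in vitro value came near an in-cell one. The change was -1.52 against untreated (SE 0.0976, limma adjusted p = 0.000194) and -1.54 against ATP-depleted (adjusted p = 0.000155). The overlapping amplicon gave -1.37 and -1.34 for the same nucleotide. At C1579, 3 nucleotides upstream, the change against ATP-depleted was -1.44 (limma adjusted p = 0.000744) and -1.29 in the overlapping amplicon. In amplicon 1524 to 1774 the in vitro counts at C1579 were 32, 4 and 9. All 24 nucleotides called in both amplicons changed in the same direction.

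Rarg 250 to 500, from the gene of a retinoic acid receptor, rose by 0.183 ± 0.0325 (SE) against untreated (limma adjusted p = 0.00122) and 0.203 against ATP-depleted (adjusted p = 0.000792). Its values were 0.441, 0.426 and 0.369 in untreated, 0.417, 0.355 and 0.402 in ATP-depleted and 0.613, 0.642 and 0.529 in in vitro samples. The in vitro values lay above all others, while untreated and ATP-depleted values overlapped. The smallest Rarg library had only 458 counts, and with all its libraries thinned to that number the rise against untreated was 0.125 (limma adjusted p = 0.00841).

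Among the 7 members not called against untreated were Ptms, Rnf10 15 to 265, Tle4 578 to 828, Ptprg 206 to 456, Ptp4a1 6 to 256 and Ncdn 0 to 250. Ptp4a1, from a tyrosine phosphatase gene, had at least 44384 counts in every sample and values of 0.273, 0.262 and 0.270 in untreated, 0.282, 0.263 and 0.260 in ATP-depleted and 0.298, 0.280 and 0.275 in in vitro samples. The in vitro values lay above the untreated ones by a narrow margin and overlapped the ATP-depleted ones, with a difference of 0.0157 from untreated (limma adjusted p = 0.175). Ptms, with its 96 counts, gave 0.626, 0.454 and 0.551 in vitro, a spread too wide to set against its untreated values of 0.451, 0.520 and 0.453. In all 50 members the in vitro mean was above the untreated mean. Rises were nearly as common elsewhere: the 5th percentile of this difference was 0.0054 over all 161 amplicons and 0.0035 over the others.

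The members of Rnf10 ranged widely. In untreated cells Rnf10 275 to 525 had the lowest mean of all members, 0.240 ± 0.0092, and Ptp4a1 the next at 0.268 ± 0.00577, while Rnf10 107 to 357 had 0.357 ± 0.0078 and Rnf10 15 to 265 had 0.429 ± 0.0481 (SD, n = 3). In vitro the same 3 Rnf10 amplicons had 0.312 ± 0.00938, 0.405 ± 0.00495 and 0.465 ± 0.0239. The highest untreated means were those of Slc22a17 302 to 552, from an organic cation transporter family gene, at 0.536 ± 0.0491 and Tle4 578 to 828 at 0.534 ± 0.0589. Their smallest libraries held 2611 and 484 counts, and those of Rnf10 275 to 525 and Ptp4a1 held 61956 and 44384.

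Hipk3, a gene of the homeodomain-interacting protein kinases, supplied 3 members that rose by 0.0939, 0.102 and 0.129. Amplicons 351 to 601 and 352 to 602 read nearly the same bases of the same samples. Whether they are independent readings is not known. Their log2 profiles over 101 shared A and C correlated at 0.982 in ATP-depleted, 0.966 in untreated and 0.956 in in vitro samples, and the 13 nucleotides called in both changed in the same direction. At C472 amplicon 351 to 601 gave 10348, 9646 and 8586 CPM in untreated, 12506, 15240 and 12744 in ATP-depleted and 44906, 51200 and 38866 in in vitro samples. Every in vitro value was far above every in-cell value, and the change was 1.92 against untreated (SE 0.126, limma adjusted p = 0.000194). Amplicon 352 to 602 gave 1.84 for this nucleotide (adjusted p = 0.000695), so both readings place it among the most increased.

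Other overlapping members agreed to different degrees. Profiles of Zc3h6 183 to 433 and 219 to 469 correlated at 0.899 to 0.961 over 94 shared A and C, and 7 of 7 nucleotides called in both had the same direction. In the Eed pair 3 of 3 did, in the Tle4 pair 4 of 5, and in the Ppm1b pair the only 1 called in both had opposite directions. The Tle4 profiles correlated at 0.415 in vitro, and at 0.744 in untreated and 0.718 in ATP-depleted samples. Profiles of Rnf10 15 to 265 and 107 to 357 correlated at 0.368 to 0.444 over 70, and those of Slc22a17 at 0.267 to 0.335 over 25. In this Rnf10 pair and the Slc22a17 pair 2 amplicons gave unlike values for the same nucleotides of 1 RNA, so a value there belongs to its amplicon. The other Rnf10 pair, 107 to 357 and 275 to 525, correlated at 0.875 to 0.895 over 23 shared A and C.

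Single nucleotides changed in both directions. Against untreated, 820 of 5256 member A and C were called (15.6%, limma), where 16.3% of all 16178 were called. Of these, 340 were higher (6.47%, all amplicons 8.08%) and 480 lower (9.13%, all amplicons 8.18%). By base, 122 A were higher and 64 lower (background 9.96% and 4.05% of all A), and 218 C were higher and 416 lower (background 6.7% and 11.2% of all C). The split depended on scaling, with 216 higher and 561 lower when each amplicon was divided by its mean, 223 and 541 in plain CPM, 168 and 457 after thinning, and 258 and 105 among nucleotides at or above the pooled median. Against ATP-depleted, 708 were called (13.5%, background 14.9%), 322 higher (6.13%, all amplicons 8.31%) and 386 lower (7.34%, all amplicons 6.56%). Single libraries moved these counts: without untreated replicate 2 or 3 the count against untreated was 441 or 476, and without ATP-depleted replicate 1, 2 or 3 the count against ATP-depleted was 424, 303 or 369. That split was 198 and 467 after division by the mean, 206 and 435 in plain CPM, 159 and 374 after thinning, and 255 and 91 at or above the median.

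Among the largest falls, Ncdn C226, in the leader of neurochondrin, had 7655, 8757 and 8527 CPM in untreated and 420, 281 and 1566 in in vitro samples, with no overlap. Its change was -1.56 (SE 0.161, limma adjusted p = 0.00112), and it rests on 12, 9 and 50 in vitro counts. Taok2 C400, in the leader of a kinase gene, had 10660, 7896 and 7645 CPM in ATP-depleted and 664, 691 and 2133 in in vitro samples, a change of -1.46 (limma adjusted p = 0.00186). That fall rests on 10, 8 and 44 in vitro counts. Ncdn C221 (-1.44 against untreated, adjusted p = 0.0241), Sertad2 C73 (1.80 against ATP-depleted, adjusted p = 0.0214) and Tmtc2 C697 (1.64 against ATP-depleted, adjusted p = 0.0137) were called by limma as well. They lost the call in 5, 7 and 1 of the alternatives. At C221 the ATP-depleted values, 1361, 4612 and 4378 CPM, overlapped the in vitro ones, 3916, 458 and 4079 CPM. In ATP-depleted replicate 1 Sertad2 C73 had only 26 counts and Tmtc2 C697 only 7. C221 and C226 are 9 and 4 nucleotides from the last position read and C73 and C400 are 5 from the first, and all of them drop out where the 25 nucleotides at each end are left out.

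The mean log2 level of an amplicon changed in fewer members. This level is a mean of logs, so it can fall when signal becomes more uneven, even where the mean CPM does not change. A lower level is therefore not a measure separate from a higher Gini coefficient. Against untreated 10 of 50 were lower and 0 higher (20%, limma), where 8.7% of all amplicons were called, 6.83% lower and 1.86% higher. The 10 were Rarg, Ube4b, Slc22a17 302 to 552, both Eed, both Tle4 and Ptms amplicons and the downstream Brd2 pair, and 6 of them had a library under 5000 counts. Against ATP-depleted 8 were lower and 1 higher (background 13.0% called, 5.59% lower and 7.45% higher), and the 8 were among the 10. Rarg fell from 13.24, 13.25 and 13.24 to 12.68, 12.72 and 13.15, a change of -0.39 (limma adjusted p = 0.033). That call was lost in 12 of 21 alternatives, with adjusted p from 2.78e-07 to 0.102, among them the fits without ATP-depleted replicate 1, any 1 untreated replicate, or in vitro replicate 1 or 2. Eed 71 to 321, from the gene of a Polycomb repressive complex subunit, fell from 13.24, 13.17 and 13.13 to 12.98, 12.74 and 12.89, a change of -0.31 (limma adjusted p = 0.0126), with no overlap and a smallest library of 478 counts. Its call was lost in 3 of 21 alternatives, 1 of them without untreated replicate 1. The count of 10 depended on single libraries and on scaling: it was 0 without untreated replicate 1, 1 without untreated replicate 3, 4 among members with at least 5000 counts, 43 when each amplicon was divided by its mean and 24, of which 23 were higher, among nucleotides at or above the pooled median.

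Between ATP-depleted and untreated cells no nucleotide, Gini coefficient or mean level of the GC-rich amplicons was called. With limma 0 of 5256 nucleotides, 0 of 50 Gini coefficients and 0 of 50 mean levels passed against untreated cells (background 0.0% each), and 223, 3 and 1 had an unadjusted p under 0.05. The members' median Gini coefficient differed by 0.00521 between the groups (exact permutation p = 0.9), less than the spread between replicates. The members' median C was lower in all 3 ATP-depleted samples (4505 to 4611 CPM) than in all 3 untreated ones (4761 to 4764 CPM), with p = 0.1, the smallest that 3 against 3 can give (exact permutation, adjusted p = 0.214 over 15). In the other amplicons the median C was also lower in all 3 (4518 to 4742 against 4782 to 4911 CPM, exact permutation p = 0.1). The lowest p of a Gini coefficient was that of Kmt2e 47 to 297, in the leader of a gene of the trithorax-related family, with 0.387, 0.401 and 0.403 in untreated and 0.428, 0.431 and 0.434 in ATP-depleted samples. Its groups did not overlap, yet the difference of 0.0334 had an adjusted p of 0.323 (limma), and that of Eif5, 0.0322, had an adjusted p of 0.348. Among levels the lowest p was that of Ptprg 206 to 456 (-0.083, limma adjusted p = 0.680), whose ATP-depleted replicate 3 had only 1236 counts, followed by Ppm1b 141 to 391 (-0.10). Among nucleotides it was that of Ptprg C389, with 10284, 7969 and 9573 CPM in untreated and 5653, 4872 and 3953 in ATP-depleted samples, the last from 4 counts (limma adjusted p = 1.00).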

How the data were processed

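Amplicons of highly conserved 5′ UTRs were sequenced after DMS probing of 9 samples, and groups and replicates were taken from the sample titles. The labels' protocols give 3 independent samples per condition. The authors deposited log2 values per nucleotide and sample, and the submitters' processing notes name bcl2fastq, Bowtie2 and limma without a role. The sources used here do not give the reference build or the mutation counter. Within each of 1449 amplicon libraries the values equalled log2 of a whole count plus 0.5, per 1000000 counts of a scaled library size (tolerance 0.0001), so counts and CPM were recovered. The scaling factors ran from 0.753 to 2.33 in member libraries, and a count of 0 could reach 2237 CPM. The counts come from amplified cDNA, so counting error is a lower limit.

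limma 3.58.1 (R 4.3.3) was fitted to all 9 samples with 1 mean per group on log2(CPM + 3197). The added 3197 CPM is 0.5 of the median over all A and C and shrinks changes of weak nucleotides. Each amplicon's mean level and Gini coefficient were tested likewise, with Benjamini-Hochberg adjustment over all amplicons or nucleotides at 0.05. No count model was run on the recovered counts. Sample medians were compared by exact permutation tests, all two-sided. Amplicons were folded with ViennaRNA 2.7.2 at 37 °C. Scripts were tested on simulated data. Gene names and chromosomes came from RefSeq (GRCm38.p6), where 68 of 69 transcripts matched, and windows came from the deposited bases. The plan assumed linear reactivity, so the deposited log2 values were turned back to that scale first.

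The members, the gene groups by function and the rule for named items were chosen with earlier results of these data known. Named were the members with the highest G plus C share, those at the threshold, those with the highest and lowest untreated Gini coefficient, and the largest called changes whose replicates did not overlap. Called nucleotides also needed 5000 counts of their amplicon in every sample. Where nothing was called the lowest p was used without that minimum, and transcripts with at least 3 members were described. Sequence of Esco1 and Fam13b was not used here. Results for 1 gene with 2 members are not reported here, though its amplicons stay in all fits and counts.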

Additional observations from a re-analysis of the deposited data

How the results depend on the processing

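The Gini coefficients called higher in vitro, the excess of the members' Gini coefficient over all A and C, the excess in the level of A and the absence of calls between ATP-depleted and untreated cells kept their direction in all alternatives tried. The exception was the Gini excess among A alone (0.00185, p not past 0.05). Low counts in the in vitro libraries, the unknown coverage of each position, the missing DMS-free control and 3 samples per group limit what these values can show. The causes of the shifts below were not tested.

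Called Gini coefficients numbered 28 against untreated and 28 against ATP-depleted with G plus C of at least 70%, and 28 and 29 with 5000 counts required, where fewer amplicons enter. Called nucleotides against untreated and ATP-depleted numbered 1279 and 1121 at 60% G plus C, 363 and 346 at or above the pooled median, and 172 and 152 for A alone, and 428 against untreated with only the 6 samples compared. Called mean levels against untreated and ATP-depleted numbered 20 and 16 with a pseudocount of 0.1 times the median, 24 and 24 at or above the median, 18 and 15 for C alone, 43 and 43 after division by the mean, 4 and 3 with 5000 counts required, 29 and 26 after thinning, and 28 and 22 in plain CPM, which was chosen after seeing the data. They numbered 3 against untreated with a pseudocount of 1 times the median, 5 against untreated with only the 6 samples compared, and 18 against ATP-depleted for A alone.

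The level difference between members and others, -0.0238 as first computed (exact permutation p = 0.137), was -0.0719 with a pseudocount of 0.1 times the median, -0.0678 after division by the mean, -0.0573 without the 25 nucleotides at each end, -0.0224 within transcripts, and reversed to 0.107 at or above the median. That of C was -0.035 after division by the mean, -0.0453 without the ends, -0.0248 with 5000 counts, -0.0351 at 60% and -0.0307 at 70% G plus C, and reversed to 0.0599 at or above the median and 0.0376 within transcripts. The agreement with predicted folding reversed to -0.013 for A alone and -0.0104 for C alone. The level of Ptprg against ATP-depleted, called higher, reversed to -0.0524 after division by the mean.

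Leaving out 1 replicate at a time gave 441 to 804 and 303 to 732 called nucleotides, 37 to 45 and 37 to 44 Gini coefficients, and 0 to 10 and 6 to 10 levels against untreated and ATP-depleted. The level difference between members and others then ran from -0.0318 to -0.0158 and that of C from -0.0264 to -0.0125. The same replicate numbers did not pair the samples, since deviations of same-numbered samples correlated at -0.0177 to 0.1. With the replicate block 699, 609 and 0 nucleotides, 43, 44 and 0 Gini coefficients and 10, 10 and 0 levels were called against untreated, against ATP-depleted and between the in-cell groups.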
